A study of Mus musculus with 12 samples.

Results

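Homeostatic chemokines are small secreted or membrane-anchored proteins that tissues make without an inflammatory trigger. They place leukocytes and progenitor cells within a tissue, whereas inducible chemokines recruit cells once an innate receptor has been engaged. The transcripts of 6 of them that stromal cells can make, Cxcl12, Cxcl13, Cxcl14, Cxcl16, Cx3cl1 and Ccl19, were followed by gene symbol through mRNAseq of cultured stroma from the mouse small intestine. All 6 were among the 23329 genes listed, and 4 of them passed the filter on low counts, with 13038 genes in all: Cxcl12, Cxcl14, Cxcl16 and Cx3cl1. Cxcl13 and Ccl19 did not pass it and are given by their counts.

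The cultures, labelled intestinal myofibroblasts, were grown either from E14.5 embryonic intestine (named by the day of gestation) or from the adult organ, and were used at passages 2 to 3. They were exposed for 6 h to lipopolysaccharide (LPS) of Escherichia coli, which the labels give at 10 µg/µl, or were the PBS vehicle controls. Stage and treatment made 4 groups, each with 3 libraries from independent cultures, each embryonic culture being a pool of 6 embryos. The study's methods place its mice on the C57BL6/J background, and no genetic change is given for these cultures. The cells were not sorted, and a culture of plated tissue may keep other cell types of the gut wall.

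The libraries held between 18850224 and 32672370 gene counts, and 3 counts, taken as the smallest detectable level, corresponded to 0.0897 to 0.145 CPM, that is, counts scaled to library sizes adjusted by TMM. All 10 markers of fibroblasts and myofibroblasts were detected in every library, at 20175 to 40537 CPM summed, while 6 epithelial markers summed to 0.443 to 1.76 CPM and 6 lymphocyte markers to at most 0.207 CPM. Other cells remained. The sum of 10 macrophage markers was 156, 264 and 1686 CPM in embryonic PBS replicates 1 to 3, 129, 711 and 1376 CPM in embryonic LPS and 40.4 to 98.6 CPM in adult stroma. The sum of 7 blood endothelial markers was 1831 and 1756 CPM in adult replicate 2 with PBS and LPS, 384 and 357 CPM in adult replicate 3, and 10.2 to 35.2 CPM in embryonic stroma. The sum of 5 mesothelial markers was 736 and 649 CPM in embryonic replicate 2 with PBS and LPS, and 140 to 152 CPM in the other embryonic libraries. It was 1375 and 1424 CPM in adult replicate 1, and 429 to 687 CPM in the other adult libraries. Embryonic replicate 3 stood apart in macrophage markers and adult replicate 2 in blood endothelial markers. Changes of members and receptors that rest on these replicates are also given without them. Embryonic replicate 2 and adult replicate 1 stood apart in mesothelial markers and were not left out as whole cultures.

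The members belong to 3 chemokine classes, named after the spacing of the first cysteines of the mature protein. The stretch of coding sequence around these cysteines (GENCODE M21 annotation of GRCm38) is printed for each member, since it is what the members share and where the classes differ, with the cysteine codons in capitals.
Cxcl12: agctaccgaTGCcccTGCcggttcttcgag
Cxcl13: aacttaaaaTGTaggTGTtctggagtgatt
Cxcl14: gggtccaagTGTaagTGTtcccggaagggg
Cxcl16: gctggaagtTGTtctTGTgatcgtaccatt
Cx3cl1: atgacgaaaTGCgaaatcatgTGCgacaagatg
Ccl19: gcggaagacTGCTGCctgtctgtgacccag
In the 4 CXC members 1 codon separated the cysteines, in Cx3cl1 3 codons did, and in Ccl19 they were adjacent. The Cxcl14 stretch joins 2 exons. Each stretch was taken from the longest annotated coding transcript of its gene that holds these cysteines. The reading frames of these transcripts also fell into a short and a long kind. Cxcl12, Cxcl13, Cxcl14 and Ccl19, which are secreted, had 99 to 119 coding codons, whereas Cxcl16 had 246 and Cx3cl1 had 395. Cxcl16 and Cx3cl1 are made as transmembrane proteins whose chemokine domain stands on a mucin-like stalk, so that they act both as adhesion molecules and, once cut free by proteases, as soluble attractants.

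In GRCm38.p6 (RefSeq) Cxcl12 lies at chr6:117168535-117181368 on the plus strand, Cxcl13 at chr5:95956939-95961068 (plus), Cxcl14 at chr13:56288643-56296811 (minus), Cxcl16 at chr11:70454389-70459984 (minus), Cx3cl1 at chr8:94772180-94782427 (plus) and Ccl19 at chr4:42754525-42756365 (minus). Counts were taken over the exons of each gene on its own strand. Cxcl16 overlaps Zmynd15 on the opposite strand, which strand-specific counting keeps apart. Ccl19 overlaps 4930578G10Rik on the opposite strand, and 45.26% of the 75-base windows of its transcripts also occur in near copies of the gene (Ccl19-ps1, Ccl19-ps3, Gm12407 and Gm2564), so its uniquely mapped counts are uncertain.

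**Figure D1:**
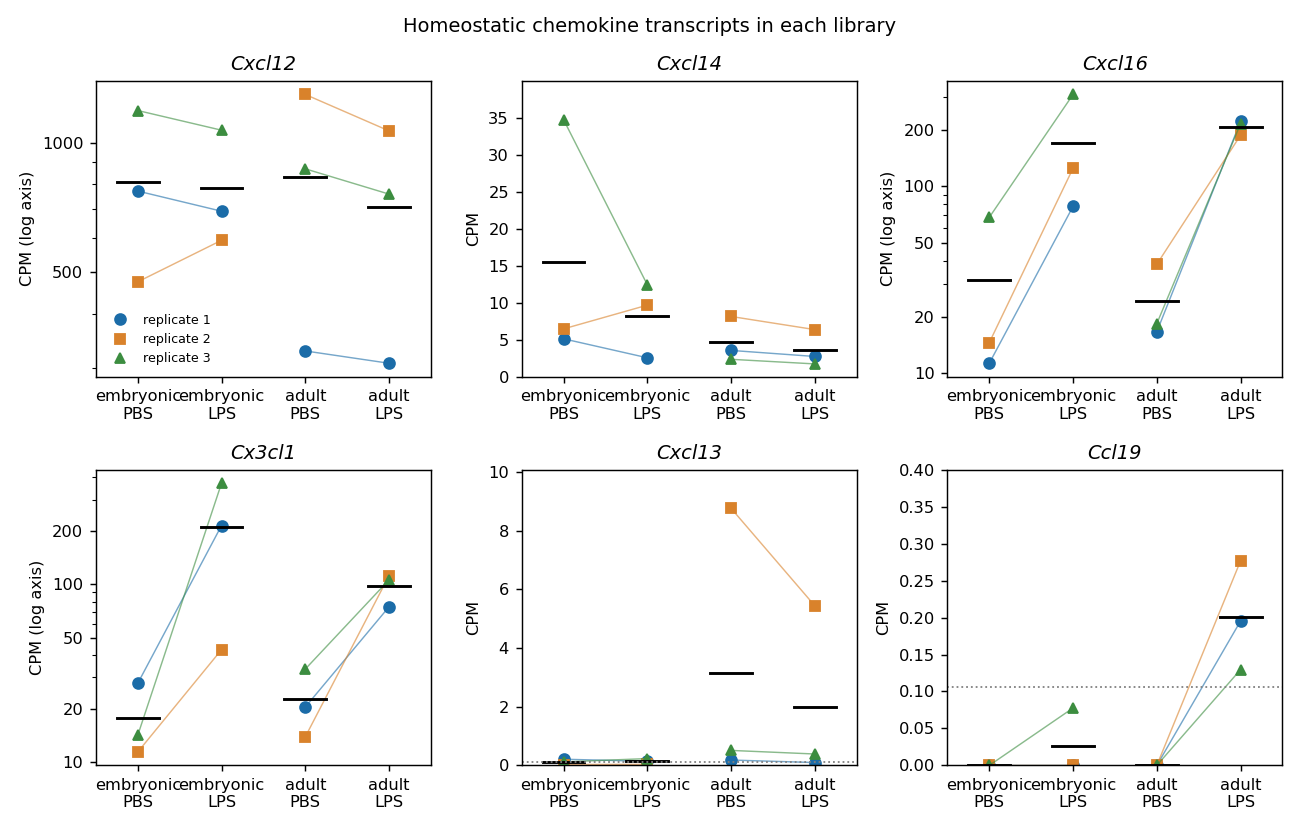
CPM of each homeostatic chemokine in each of the 12 libraries, with lines joining the PBS and LPS libraries of the same replicate number, black bars for group means and, for Cxcl13 and Ccl19, a dotted line at the mean level of 3 counts. The axes of Cxcl12, Cxcl16 and Cx3cl1 are logarithmic. Cxcl16 and Cx3cl1 lie higher in every LPS library than in every PBS library of the same stage, while Cxcl12 and Cxcl14 overlap.

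The first question was which of these chemokines the stroma makes without stimulation. Cxcl12, which through its receptor CXCR4 retains haematopoietic and lymphoid cells in tissues, was the most abundant. It measured 772, 475 and 1187 CPM in embryonic PBS replicates 1 to 3 and 328, 1294 and 869 CPM in adult PBS, a mean of 812 ± 358 CPM (SD, n = 3) and 831 ± 484 CPM. The replicates of each stage spread over a wider range than the means of the stages, and embryonic against adult PBS gave a log2 difference of -0.03 with a 95% interval from -1.26 to 1.20 (edgeR quasi-likelihood test, Benjamini-Hochberg adjusted p = 0.984). In adult stroma the order of the replicates in Cxcl12, with replicate 1 lowest and replicate 2 highest, was also their order in the summed blood endothelial markers (20.4 CPM in adult PBS replicate 1). It was the reverse of their order in the fibroblast and mesothelial sums. In embryonic PBS the endothelial order differed, as replicate 3 had the highest Cxcl12 and the lowest blood endothelial sum (10.2 CPM). The part of these cells in the Cxcl12 level was not tested. Since these are bulk libraries, more cells of a type and more RNA per cell cannot be told apart.

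Levels were compared between genes per kilobase of exon (union of the annotated exons). This union pools all annotated transcripts of a gene, with 8.176 kb for Cxcl12 and 0.867 to 3.93 kb for the other members. Which transcripts the cells made was not measured, so ranks and shares per kilobase depend on these lengths. On this scale Cxcl12 measured 99.3 ± 43.8 CPM per kb in embryonic PBS and 102 ± 59.2 in adult PBS (n = 3 each), which was 82.4% and 82.5% of the summed level of the 6 members. Cxcl16 followed at 10.4 ± 10.6 in embryonic and 8.08 ± 3.98 CPM per kb in adult PBS. The next places were held by Cxcl14 (8.45 ± 9.16) and Cx3cl1 (4.52 ± 2.23) in embryonic PBS, and by Cx3cl1 (5.74 ± 2.53), Cxcl13 (2.74 ± 4.23) and Cxcl14 (2.56 ± 1.67) in adult PBS. Cxcl12 lay above all other members, since its lowest value with PBS was 40.2 and the highest value of another member, Cxcl16, was 22.6 CPM per kb. In embryonic PBS the ranges of Cxcl16, Cxcl14 and Cx3cl1 overlapped, and Cxcl13 (at most 0.183 CPM per kb) and Ccl19 (not counted) lay below them. In adult PBS Cxcl16 (5.51 to 12.7 CPM per kb) overlapped Cx3cl1 (3.53 to 8.49) but not Cxcl14 (1.29 to 4.46), Cx3cl1 overlapped Cxcl14, Cxcl13 (0.159 to 7.62) overlapped these 3, and Ccl19 was again not counted.

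Cxcl14, an attractant made constitutively by epithelium and fibroblasts, was low. It measured 5.12, 6.46 and 34.7 CPM in embryonic PBS and 3.55, 8.14 and 2.35 CPM in adult PBS. Embryonic replicate 3 stood alone at the top, and the other libraries of both stages interleaved. The log2 difference of embryonic against adult PBS was 1.73 (SE 0.87, 95% interval -0.21 to 3.66), which did not pass (edgeR, adjusted p = 0.310), and it was 0.31 without embryonic PBS replicate 3. The order of the embryonic PBS replicates in Cxcl14 was also their order in the macrophage sum. In adult PBS these orders differed, and a relation between Cxcl14 and macrophages was not tested.

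Cxcl16 and Cx3cl1 were present at 11.3 to 68.2 CPM before stimulation. Cxcl16, the ligand of CXCR6 on T cells and innate lymphoid cells, measured 11.3, 14.54 and 68.2 CPM in embryonic PBS and 16.6, 38.3 and 18.4 CPM in adult PBS. Cx3cl1 (fractalkine), the ligand of CX3CR1 on monocytes and macrophages, measured 27.8, 11.4 and 14.2 CPM in embryonic PBS and 20.4, 13.9 and 33.4 CPM in adult PBS. The stages overlapped in both genes, with log2 differences of 0.36 for Cxcl16 (95% interval -1.18 to 1.90) and -0.34 for Cx3cl1 (-1.76 to 1.07). The high embryonic value of Cxcl16 was that of replicate 3, the library with the highest macrophage sum; whether the 2 are related was not tested. Of the 4 members tested none differed between the stages with PBS (edgeR, adjusted p 0.310 to 0.984, none at an unadjusted p under 0.05), where 4.08% of all genes tested did.

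Cxcl13 and Ccl19 are the attractants that organise lymphoid follicles and T cell zones, through CXCR5 and CCR7. Cxcl13 was counted 7, 1 and 4 times in embryonic PBS and 4, 1 and 6 times in embryonic LPS. In adult stroma it was counted 5, 182 and 15 times with PBS and 3, 177 and 9 times with LPS, so that adult replicate 2 alone held most of the Cxcl13 of the series in both treatments. At 8.77 CPM with PBS and 5.44 CPM with LPS, that replicate was also the one with the highest blood endothelial sum, and their relation was not tested. With no filter on low counts the log2 difference of embryonic against adult PBS was -4.64 (95% interval -8.43 to -0.86), which did not pass (edgeR, adjusted p = 0.197). Without adult replicate 2 it was -1.504 (-3.69 to 0.68, adjusted p = 0.574). Ccl19 was not counted in any of the 6 PBS libraries, each of which allows up to 3 counts by counting error alone. It was counted 0, 0 and 2 times in embryonic LPS and 6, 9 and 3 times in adult LPS, and the mean adult LPS level was at least 1.69-fold higher than the adult PBS floor of 3 counts per library. With no filter on low counts the Ccl19 change in adult stroma had an adjusted p of 0.465 in edgeR (unadjusted 0.00866), and 0.209 with the replicate block explained next (unadjusted 0.0194). Markers of follicular dendritic cells, the main Cxcl13 source of lymphoid follicles, were near 0, with 3 of 4 listed markers in the tables and a summed level of 0 to 1.32 CPM.

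The second question was whether LPS changes these transcripts. Libraries were compared in a model of the 4 groups, and also in a model that takes the replicate number as a block inside each stage, because an LPS library deviated from its group together with the PBS library of its number. Without the block, 1 of the 4 members tested passed in embryonic stroma (Cx3cl1, higher with LPS) and none in adult stroma, where Cxcl16 and Cx3cl1 had unadjusted p-values of 0.00188 and 0.00907 and passed in DESeq2. The background was 2.75% of the 13038 genes in embryonic and 0.606% in adult stroma (2.67% and 0.598% counting rises alone). With the block, Cxcl16 and Cx3cl1 passed in both stages, both higher with LPS, against 12.5% of genes in embryonic and 6.20% in adult stroma (9.43% and 4.69% for rises). The 2 members that rose are the 2 with a transmembrane anchor, and the 2 soluble members did not pass in either model, among 4 genes, too few to compare the kinds.

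Cx3cl1 rose to 214, 42.9 and 371 CPM in embryonic LPS and 74.8, 112 and 106 CPM in adult LPS. All 3 LPS libraries lay above all 3 PBS libraries in each stage, which held for 7.58% of the genes tested in embryonic and 9.10% in adult stroma. In embryonic stroma the change was 3.56 on the log2 scale (SE 0.70, 95% interval 2.01 to 5.11), 11.8-fold (edgeR, adjusted p = 0.0239), and with the block 3.19 (SE 0.51, adjusted p = 0.00570). In adult stroma it was 2.11 (SE 0.66, 95% interval 0.65 to 3.57), 4.32-fold (edgeR, adjusted p = 0.363), and with the block 2.16 (SE 0.48, adjusted p = 0.0378). Replicate pairs were uneven. The LPS value was 7.72, 3.76 and 26.2 times the PBS value of the same number in embryonic stroma and 3.67, 8.07 and 3.18 times in adult stroma. Without embryonic replicate 3, the one richest in macrophage markers, the embryonic change was 2.71 (edgeR, adjusted p = 0.233), and 2.44 with the block (adjusted p = 0.00377). Without adult replicate 2 the adult change was 1.76 with the block and no longer passed (adjusted p = 0.197).

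Cxcl16 rose to 78.1, 125 and 311 CPM in embryonic LPS and 223, 188 and 217 CPM in adult LPS. As for Cx3cl1, LPS and PBS libraries did not overlap in either stage. The LPS libraries of adult stroma lay close together at 209 ± 18.6 CPM, whereas those of embryonic stroma spread from 78.1 to 311 CPM. The embryonic change was 2.45 on the log2 scale (SE 0.73, 95% interval 0.84 to 4.06), 5.47-fold, and did not pass without the block (edgeR, adjusted p = 0.143), while the block gave 2.68 (SE 0.29, adjusted p = 0.000761). The adult change was 3.10 (SE 0.75, 95% interval 1.44 to 4.76), 8.58-fold, with an adjusted p of 0.138 in edgeR, and with the block 3.20 (SE 0.30, adjusted p = 0.000739). The LPS value was 6.93, 8.61 and 4.56 times the PBS value in embryonic pairs and 13.4, 4.92 and 11.8 times in adult pairs. The embryonic change was as large without replicate 3 (2.94, edgeR adjusted p = 0.00924 without the block).

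**Figure D2:**
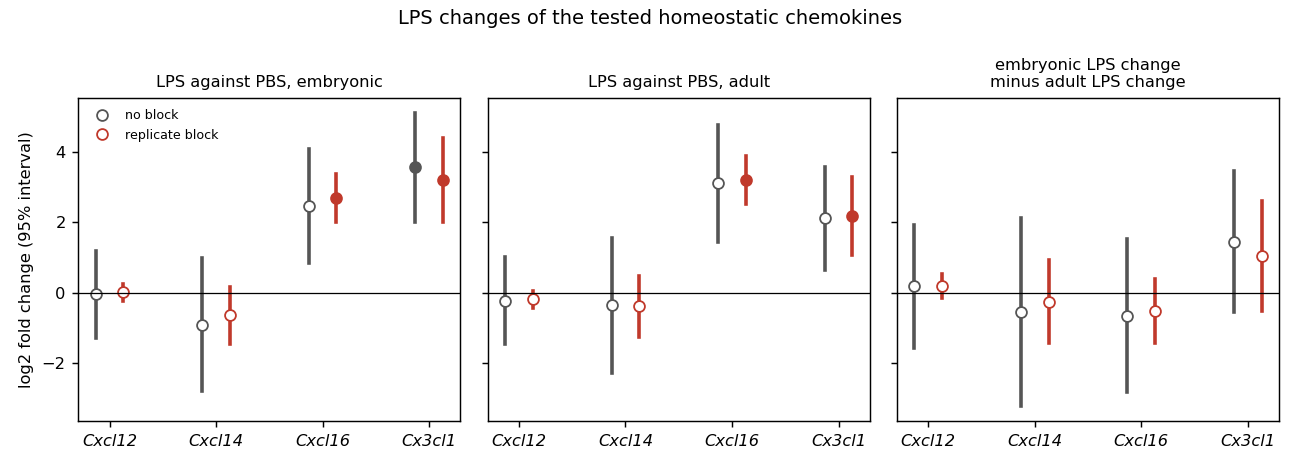
Log2 fold changes of the 4 tested members with 95% intervals, for LPS against PBS in each stage and for the difference between the stages, from the fit without (grey) and with (red) the replicate block. Filled points passed at an adjusted p under 0.05. The intervals of Cxcl16 and Cx3cl1 exclude 0 in both stages and fits, and those of the difference between stages include it for each member.

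Cxcl12 measured 693, 593 and 1069 CPM in embryonic LPS and 308, 1065 and 760 CPM in adult LPS. Each library stayed close to the PBS library of its number, at 0.898, 1.25 and 0.900 times its value in embryonic pairs and 0.936, 0.823 and 0.874 times in adult pairs. With the block the embryonic log2 change was 0.00 (95% interval -0.23 to 0.24, edgeR adjusted p = 0.986) and the adult change -0.19 (-0.43 to 0.05, adjusted p = 0.408), whose lower bound is 0.743 of the PBS level. Without the block the intervals ran from -1.28 to 1.18 and from -1.46 to 1.01. The adult value was lower with LPS in 3 of 3 pairs and passed in a single setting, the adult libraries fitted alone with the block (-0.20, edgeR adjusted p = 0.0426).

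Cxcl14 measured 2.56, 9.67 and 12.4 CPM in embryonic LPS and 2.74, 6.37 and 1.73 CPM in adult LPS. It was lower with LPS in 2 of 3 embryonic pairs and in 3 of 3 adult pairs. The log2 change was -0.91 in embryonic (95% interval -2.80 to 0.98) and -0.36 in adult stroma (-2.27 to 1.54), and with the block -0.65 (-1.45 to 0.16) and -0.39 (-1.25 to 0.47). None of these passed (edgeR, adjusted p 0.925 and 1, and 0.287 and 0.689 with the block). The embryonic direction rested on replicate 3, which fell from 34.7 to 12.4 CPM, and the change was 0.50 without its PBS library.

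The share of the members' summed level per kilobase moved with these changes. Cxcl12 held 48.5% of it in embryonic LPS and 44.4% in adult LPS, down from the shares with PBS given above, at 96.0 ± 30.7 and 86.9 ± 46.6 CPM per kb. Cxcl16 held 26.0% in embryonic LPS and 40.03% in adult LPS, at 56.7 ± 40.7 and 69.3 ± 6.16 CPM per kb. Cx3cl1 held 23.1% and 13.6%, at 53.3 ± 41.7 and 24.8 ± 5.08 CPM per kb. On this scale the LPS libraries of Cxcl12 and Cxcl16 overlapped in both stages, and those of Cxcl16 and Cx3cl1 overlapped in embryonic stroma but not in adult stroma (62.3 to 73.8 against 19.0 to 28.5 CPM per kb). The overlap of Cxcl12 with Cxcl16 rests on the exon lengths. In CPM the lowest Cxcl12 value was 593 against at most 311 for Cxcl16 in embryonic LPS, and 308 against at most 223 in adult LPS.

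**Figure D3:**
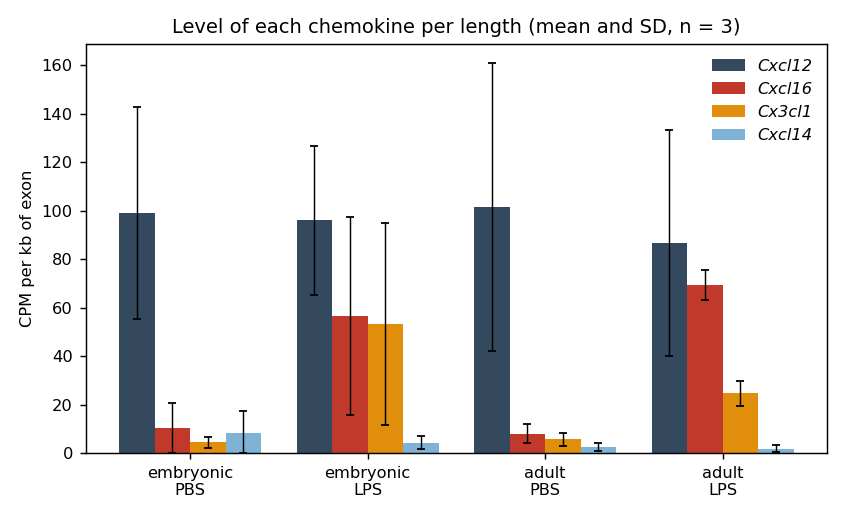
Mean level per kilobase of exon of 4 homeostatic chemokines in each group, with SD over 3 libraries (bars of SD that would pass below 0 end at 0). Cxcl12 has the highest mean in each group, at 86.9 to 102 CPM per kb, but with LPS its libraries overlap those of Cxcl16 in both stages on this scale. Cxcl16 and Cx3cl1 are higher with LPS than with PBS in both stages.

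Whether the LPS changes differ between embryonic and adult stroma was asked with an interaction term for stage and treatment. The difference, embryonic minus adult on the log2 scale, was 1.45 for Cx3cl1 (95% interval -0.55 to 3.44), -0.65 for Cxcl16 (-2.82 to 1.52), 0.18 for Cxcl12 (-1.56 to 1.92) and -0.55 for Cxcl14 (-3.22 to 2.13). With the block it was 1.03 for Cx3cl1 (-0.52 to 2.59) and -0.52 for Cxcl16 (-1.42 to 0.39). None passed (edgeR, adjusted p = 1 for each, 0.734 to 0.947 with the block, and none at an unadjusted p under 0.05), where no gene passed without the block and 0.844% did with it. The point estimates of Cx3cl1 and Cxcl16 leaned to opposite stages, and the intervals leave room for a difference in either direction.

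The receptors of these ligands were followed from a list of 9 receptors and scavengers, under the older symbols of the tables where these differ (Cxcr7 for the CXCL12 scavenger ACKR3, Ccrl1 for the CCL19 scavenger ACKR4). Of these, 5 passed the filter on low counts. Without the block none of the receptors passed in either stage (edgeR, adjusted p 0.152 to 0.999 in embryonic and 0.238 to 1 in adult stroma). In that test Cxcr4, Cxcr6 and Cx3cr1 in embryonic stroma and Cxcr4 in adult stroma had an unadjusted p under 0.05. The share of all genes under that unadjusted threshold was not taken, so nothing is concluded from it. With the block 1 rose and 2 fell in embryonic stroma, where 9.43% of all genes tested rose and 3.11% fell, and 1 fell in adult stroma, where 1.51% fell.

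Cx3cr1, the receptor of Cx3cl1 and a gene of macrophages, measured 23.8, 26.4 and 271 CPM in embryonic PBS and 5.99, 5.18 and 17.6 CPM in embryonic LPS. All 3 LPS libraries were below all 3 PBS libraries, as for 4.02% of the genes tested. The receptor was thus lower and the ligand higher with LPS than with PBS, and a relation between them was not tested. The log2 change of Cx3cr1 was -3.48 without the block (edgeR, adjusted p = 0.182) and -2.82 with it (SE 0.35, adjusted p = 0.00155). Without embryonic replicate 3 it was -2.19 with the block (adjusted p = 0.000122). In adult stroma it measured 4.32, 0.867 and 1.40 CPM with PBS and 2.12, 0.277 and 0.562 CPM with LPS, a log2 change of -1.19 with the block (adjusted p = 0.293, and 0.00841 without embryonic replicate 3). With PBS it was higher in embryonic than in adult stroma by 5.59 on the log2 scale (edgeR, adjusted p = 0.0362), a difference that was 3.496 without embryonic replicate 3 (adjusted p = 0.0605) and 5.24 without adult replicate 2 (0.126) and then did not pass. The macrophage markers moved unevenly in the same libraries, and their part in the Cx3cr1 change was not tested. None of the 10 passed in either stage without the block, where 2.75% of all genes tested passed in embryonic and 0.606% in adult stroma. Their median log2 change was -0.07 in embryonic stroma. With the block 3 of 10 rose (Ptprc, Fcgr1 and Adgre1, listed as Emr1) and none fell in embryonic stroma, with a median of 0.10. Of all genes tested there, 9.43% rose and 3.11% fell with the block. Csf1r, the receptor that macrophages need to survive, measured 35.7, 46.5 and 286 CPM in embryonic PBS and 13.1, 73.6 and 124 CPM in embryonic LPS, lower in pairs 1 and 3 and higher in pair 2.

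Cxcr4, the receptor of Cxcl12, measured 2.56, 2.71 and 13.9 CPM in embryonic PBS and 0.526, 0.656 and 0.777 CPM in embryonic LPS. It measured 3.88, 0.0964 and 0.989 CPM in adult PBS and at most 0.0923 CPM in adult LPS, with at most 3 counts in each adult LPS library, so the size of its adult change is poorly fixed. With the block Cxcr4 fell in both stages, with a log2 change of -2.92 in embryonic (SE 0.58, edgeR adjusted p = 0.0158) and -4.26 in adult stroma (SE 0.96, adjusted p = 0.0416). Without embryonic replicate 3 the embryonic change was -2.18 and no longer passed (adjusted p = 0.0555), and without adult replicate 2 the adult change was -5.35 (adjusted p = 0.0270). Cxcr7 measured 62.9 to 93.4 CPM in adult PBS and 112 to 165 CPM in adult LPS, a log2 change of 0.80 with the block (adjusted p = 0.0668), and in embryonic stroma 15.8 to 63.8 CPM with PBS and 23.5 to 53.0 CPM with LPS, a change of 0.09 (adjusted p = 0.838).

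Cxcr6, the receptor of Cxcl16, was near 1 CPM, at 0.419 to 0.640 CPM in embryonic PBS and 0.701 to 1.86 CPM in embryonic LPS, and rose with the block by 1.25 (SE 0.30, edgeR adjusted p = 0.0330), which was 1.05 without embryonic replicate 3 (adjusted p = 0.133) and 1.22 without adult replicate 2 (0.0647) and then did not pass. In adult stroma it was 2.22 to 3.55 CPM with PBS and 1.94 to 3.19 CPM with LPS (-0.04 with the block, adjusted p = 0.970), and with PBS it was lower in embryonic than in adult stroma by a log2 difference of -2.40 (edgeR, adjusted p = 0.0119). Cxcr5 was at most 0.173 CPM in any library. Ccr7, the receptor of Ccl19, was 0 to 0.0366 CPM with PBS and 0.0308 to 8.66 CPM with LPS, and did not pass the filter.

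**Figure D4:**
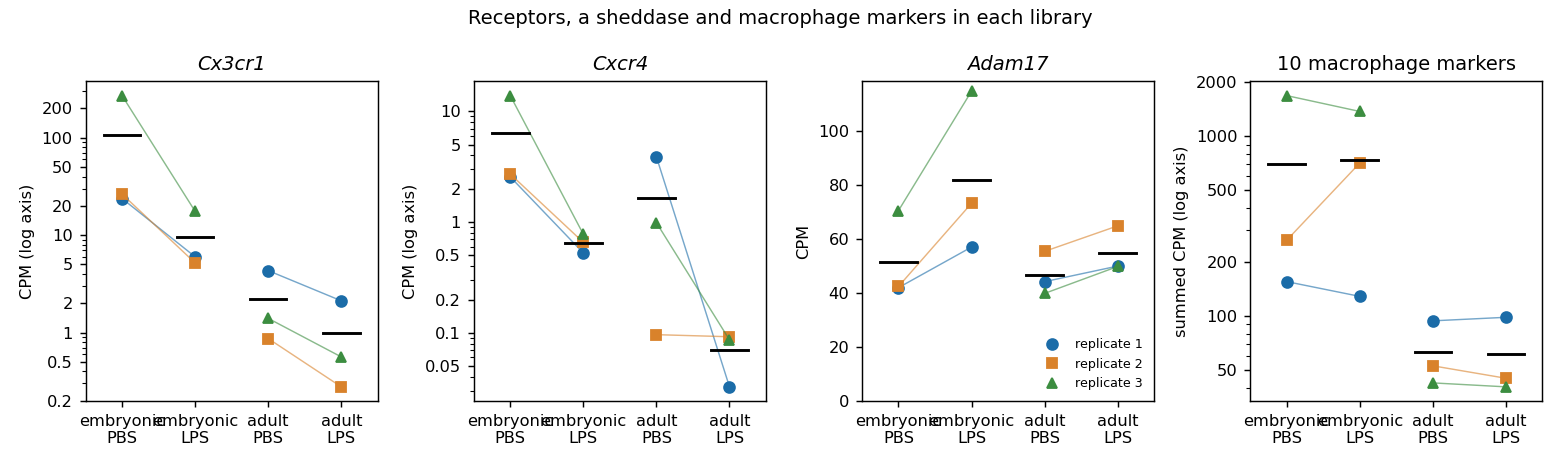
CPM of the receptors Cx3cr1 and Cxcr4, of the protease gene Adam17 and of 10 macrophage markers summed, in each library, with replicate pairs joined and group means as black bars (logarithmic axes except for Adam17). Cx3cr1 and Cxcr4 are lower in every embryonic LPS library than in every embryonic PBS library, whereas the macrophage sums overlap.

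The membrane-anchored chemokines are cut free by ADAM10 and ADAM17, and DPP4 trims several soluble ones. All 3 protease genes were tested, and none changed with LPS without the block (edgeR, adjusted p 0.408 to 0.999 in embryonic and 1 in adult stroma, with Adam17 in embryonic stroma at an unadjusted p of 0.0401). Adam17 measured 42.0, 42.4 and 70.4 CPM in embryonic PBS and 57.0, 73.2 and 115 CPM in embryonic LPS. With the block it rose by 0.64 (SE 0.08, edgeR adjusted p = 0.00196). In adult stroma it measured 44.2, 55.4 and 39.9 CPM with PBS and 50.0, 64.8 and 49.8 CPM with LPS (0.24 with the block, adjusted p = 0.169). Adam10 was 190 to 239 CPM in embryonic and 188 to 284 CPM in adult stroma, with changes of -0.06 and -0.12 with the block that did not pass.

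The other chemokines place these changes. Of 9 chemokines listed as other constitutive ones, 3 were tested. Among them, Ccl20 passed the filter on low counts only through LPS libraries, and its values resembled the inducible list more than this class. Ccl20, the CCR6 ligand of the gut, was 0.120 to 2.93 CPM in embryonic PBS and 106 to 228 CPM in embryonic LPS, and 0.443 to 1.30 against 48.0 to 158 CPM in adult stroma. It rose by 7.10 and 6.98 on the log2 scale (edgeR, adjusted p = 0.00871 and 0.0232), the adult change being 6.93 without adult replicate 2 (adjusted p = 0.167, and 0.0175 with the block). Ccl25 and Ccl27a did not pass in either stage (log2 changes from -0.10 to 0.17), and Ccl21a, Ccl21b and Ccl21c, which share the receptor CCR7 with Ccl19, were counted in no library, but they are near-identical copies and only unique alignments were kept. Of 9 inducible chemokines, 9 rose in embryonic and 7 in adult stroma without the block, where 2.67% and 0.598% of all genes did. With it 9 rose in each, against 9.43% and 4.69%. Cxcl1, Cxcl2, Cxcl5, Cxcl9, Cxcl11 and Ccl5 passed the filter only through LPS libraries, so the filter favoured their rise. The median log2 change of the list was 11.07 and 7.53 without the block, beside medians of 0.00 and -0.01 over all genes tested. Cxcl11 was counted in no PBS library. Cxcl1, Cxcl2, Cxcl5, Cxcl9 and Ccl5 lay near or under 3 counts in some, so the sizes of these changes are poorly fixed. The 4 members tested had medians of 1.20 and 0.94, and the largest member change, 3.56 for Cx3cl1, was below the smallest changes of the inducible list, those of Ccl7 at 6.16 in embryonic and 4.87 in adult stroma.

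**Figure D5:**
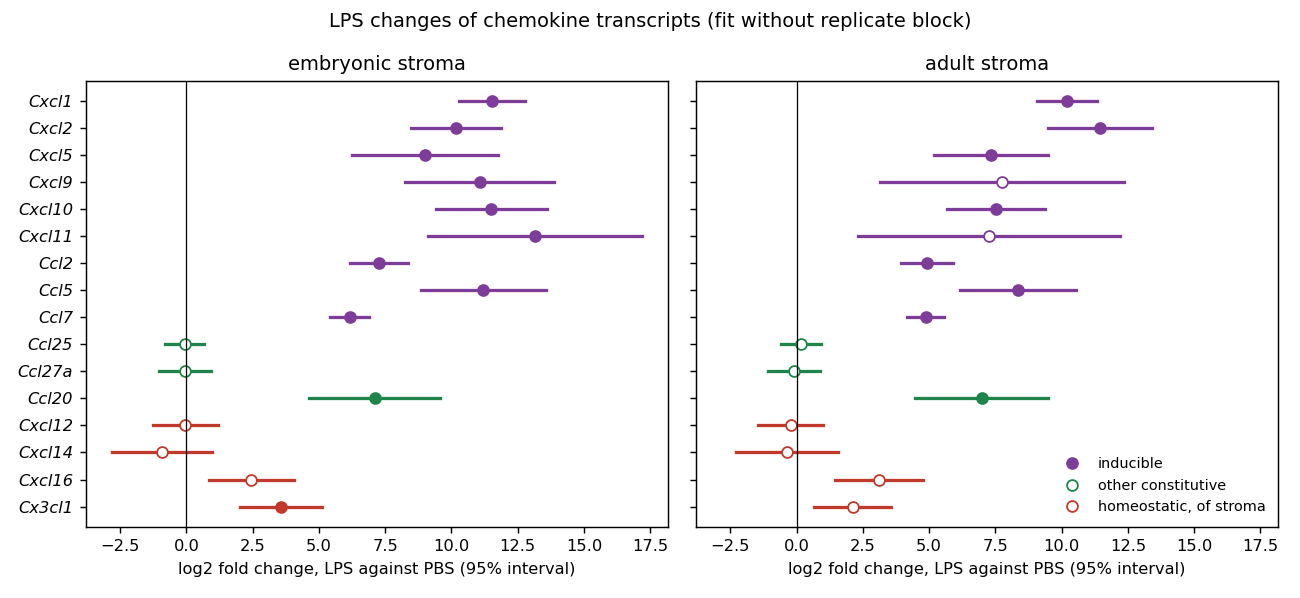
Log2 fold change of LPS against PBS with its 95% interval for 9 inducible chemokines, 3 chemokines listed as other constitutive and the 4 tested members. Each stage is shown, from the fit without the replicate block (filled points passed). The inducible genes lie between 4.87 and 13.16, Ccl20 near 7, and the members between -0.91 and 3.56. Sizes are poorly fixed for the inducible genes that lay near or under the floor of 3 counts with PBS.

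In lymphoid tissue Cxcl13, Ccl19 and Cxcl12 are made by organiser stroma under lymphotoxin and NF-kB signals, together with adhesion molecules. Of 12 genes of this programme 11 were tested. Without the block 5 rose in embryonic stroma and 4 in adult stroma (2.67% and 0.598% of all genes tested). With it 6 rose in each (9.43% and 4.69%), and none fell in either model. Madcam1 and Tnfsf11 passed the filter only through adult LPS libraries (means 0.786 and 5.42 CPM), so the filter favoured their rise in adult stroma. Vcam1, which holds leukocytes on stroma, rose from 29.9 ± 23.1 to 628 ± 278 CPM in embryonic stroma (log2 change 4.40, edgeR adjusted p = 0.00391) and from 134 ± 48.7 to 1724 ± 167 CPM in adult stroma (3.69, adjusted p = 0.0178). Relb rose by 2.71 and 2.05 and Nfkb2 by 2.54 and 2.15 on the log2 scale (edgeR, adjusted p 0.00188 and 0.0128 for Relb, 0.00227 and 0.0101 for Nfkb2), both being parts of the non-canonical NF-kB pathway. Not every gene of the list moved this way. Mean Ltbr went from 97.8 (PBS) to 91.8 CPM (LPS) in embryonic cultures, and from 97.7 to 88.8 CPM in adult ones. Mean Map3k14 went from 15.0 to 13.7 and from 18.6 to 14.2 CPM, though embryonic pairs 1 and 2 were slightly higher with LPS. For both genes the treatments overlapped in each stage. Whether lymphotoxin signals took part was not tested. Without adult replicate 2 the adult changes of Vcam1, Relb and Nfkb2 were 4.05, 2.04 and 2.25 and did not pass without the block (adjusted p 0.124, 0.0587 and 0.0981), but passed with it (0.0103, 0.00719 and 0.00563). In the same libraries Cxcl12 did not pass, and Cxcl13 and Ccl19 had the counts given above. The median log2 change of the list, Madcam1 and Tnfsf11 included, was 2.54 in embryonic and 2.05 in adult stroma.

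Promoter sequence (RefSeq, GRCm38.p6, 250 bases before to 50 after the start) matched for 5 members, all but Cxcl16. Cxcl12 was high and its LPS change did not pass in either model. Cx3cl1 was higher in every LPS library than in every PBS library of its stage. The 100 bases before the start of both genes are printed, with motif matches in capitals.
Cxcl12: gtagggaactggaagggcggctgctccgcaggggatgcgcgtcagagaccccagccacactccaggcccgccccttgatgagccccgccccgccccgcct
Cx3cl1: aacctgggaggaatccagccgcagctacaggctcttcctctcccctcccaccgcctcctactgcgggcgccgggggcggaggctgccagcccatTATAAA
These are chr6:117168435-117168534 and chr8:94772080-94772179, both on the plus strand. Searched on both strands, the letters TATAAA occurred in the 300-base windows of Cx3cl1 (starting 6 bases before the start) and Cxcl13 (46 bases before it), as in 13.6% of 32851 such windows. The interferon-response letters GAAANNGAAA occurred in those of Cxcl14 and Ccl19, as in 3.44% of windows. The Cxcl14 window (chr13:56296502-56296801) lies within the gene span given above, so its start is an inner one and its match lies inside that span. The NF-kB consensus occurred in none of the 5 windows, of which only that of Cx3cl1 belongs to a member that rose, and in 8.46% of all windows.

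Over the 12 libraries the genes whose log2 CPM was most like that of a member were Zc3h4 for Cxcl12 (Pearson r = 0.97), Rgs2 for Cxcl14 (0.95), Rab32 for Cxcl16 (0.98) and Parp8 for Cx3cl1 (0.97). Cxcl16 and Cx3cl1 had r = 0.74 with each other, and Cxcl12 had 0.15 and 0.10 with them. The libraries share treatment, stage and replicate, so these values only describe likeness of pattern. Rab32, most like Cxcl16, had log2 changes of 1.03 in embryonic and 1.58 in adult stroma that did not pass without the block (edgeR, adjusted p = 0.146 and 0.0584), and Zc3h4, most like Cxcl12, had 0.06 and -0.04 (0.999 and 1).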

How the data were processed

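Strand-specific, poly(A)-selected libraries were read as single ends of 75 bp. After trimming of adaptors and poor-quality reads, the authors mapped reads to GRCm38.p6 with STAR, kept unique alignments with at most 1 mismatch and deposited raw counts per gene, without normalization, in 1 table per library. The submitters' processing notes name STAR and mm10. The count column of the transcript strand was used; the opposite strand held 1.14% to 1.98% of gene counts.

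Stage, treatment and replicate were taken from the labels. The tests ran in edgeR 4.0.16 under R 4.3.3 (TMM, quasi-likelihood test, 1 model of the 4 groups, Benjamini-Hochberg adjustment over 13038 genes with a CPM above 0.5 in all libraries of at least 1 group). A gene passed at an adjusted p under 0.05. DESeq2 1.42.0 was an alternative, with other filters, size factors, thresholds, strands, blocks and left-out libraries, and figures used Python 3.11.15 with matplotlib 3.10.9. The scripts were tested on simulated counts (seed 1). CPM values are on TMM library sizes, log2 CPM on a prior count of 2, and the floor of 3 counts and 95% intervals of counts cover counting error only. Likeness named the gene with the highest Pearson r.

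Replicate numbers were checked for pairing by the correlation of deviations from group means. Same-numbered LPS and PBS libraries had r = 0.71 to 0.78 in embryonic and 0.61 to 0.85 in adult stroma, and other pairs of these groups at most 0.02, so the number was used as a block within a stage. Across stages same-numbered libraries had r = -0.31 to -0.0022. No source used here states that a culture was split between LPS and PBS. No libraries of a group agreed within sampling noise.

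The members and gene lists were chosen with earlier results of these data known. Named genes are all members, list genes and the genes most like a member.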

Additional observations from a re-analysis of the deposited data

How the results depend on the processing

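Low counts kept Cxcl13 and Ccl19 out of the main test, replicate spread also limits Cxcl13 in adult stroma, and 3 cultures a group limit the rest. Over the alternatives Cx3cl1 and Cxcl16 stayed higher with LPS in both stages, with log2 changes of 2.44 to 4.04 and 1.66 to 3.73 in embryonic and 1.74 to 2.51 and 2.89 to 3.65 in adult stroma. Whether they passed depended on the setting, and the cause was not tested. The signs of Cxcl12 and Cxcl14 changes, and of stage differences other than that of Cxcl14, were not stable.

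Of the members, 1 passed in embryonic and 0 in adult stroma in the main analysis. The embryonic number was 2 with the likelihood ratio test, DESeq2, the replicate block within a stage, the stage alone with the replicate block, and with the replicate block without embryonic replicate 3 or without adult replicate 2. It was 0 at an adjusted p under 0.01, with the stage alone and without adult replicate 2, and 0 to 1 with single libraries left out. Cx3cl1 in embryonic stroma then missed the threshold without LPS replicate 3 (edgeR, adjusted p = 0.0800) and without PBS replicate 1 (0.0635), 2 (0.0837) or 3 (0.0944), without adult replicate 2 in both treatments (0.0639) and with the stage alone (0.207). The adult number was 1 with the likelihood ratio test, without embryonic replicate 3 and with the replicate block without adult replicate 2. It was 2 with DESeq2, the replicate block within a stage, the stage alone and the replicate block without embryonic replicate 3, 3 with the stage alone with the replicate block, and 0 to 1 with single libraries left out (1 without embryonic PBS replicate 3, where Cxcl16 had an adjusted p of 0.0356 in edgeR). The block of replicate numbers over all groups changed no call of a member. Members differing between stages, with PBS or in their LPS change, were 0 in every setting. Over all genes, with no replicate left out, the number passing ran from 4 to 1635 in embryonic LPS, 16 to 1893 in adult LPS, 102 to 2329 between stages and 0 to 110 in the interaction, beside 358, 79, 532 and 0 in the main analysis.

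The log2 change of Cxcl12 in embryonic stroma turned to 0.0039 with the replicate block within the stage, 0.0040 with the stage alone and the replicate block, 0.019 without embryonic replicate 3 and 0.057 without it with the replicate block. The Cxcl14 change turned to 0.033 in embryonic stroma without embryonic replicate 3, and its interaction to 0.41, or 0.24 with the replicate block. Embryonic against adult PBS turned to 0.12 for Cxcl12 and -0.045 for Cxcl16 with the replicate block over all groups, to 0.055 for Cxcl12 and 0.38 for Cx3cl1 as the mean of both treatments, to -0.92 for Cxcl16 without embryonic replicate 3 and to 0.44 for Cxcl12 without adult replicate 2. Leaving out embryonic replicate 3 or adult replicate 2 in both treatments was chosen after seeing the data.

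With each library left out in turn, log2 changes ran from -0.36 to 0.33 (Cxcl12) and -1.39 to 0.50 (Cxcl14) in embryonic LPS, and from -0.64 to 0.25 (Cxcl12) and -1.06 to 0.30 (Cxcl14) in adult LPS. The interaction ran from -0.29 to 0.59 (Cxcl12), -1.21 to 0.87 (Cxcl14) and -1.43 to 0.63 (Cxcl16). Embryonic against adult PBS ran from -0.41 to 0.44 (Cxcl12), -0.92 to 0.84 (Cxcl16) and -0.82 to 0.051 (Cx3cl1).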
